A study of Mus musculus with 4 samples.

Results

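CD8 T cells that carried few or no transcripts of cytotoxic genes were collected from single-cell RNA libraries of mouse aorta. A barcode was a member when it held at least 500 UMIs (unique molecular identifiers, each standing for 1 captured RNA molecule) and at most 10% mitochondrial UMIs. It also had at least 2 UMIs summed over the T cell genes Cd3d, Cd3e, Cd3g, Trac and Trbc2, and at least 1 UMI of the CD8 chains Cd8a and Cd8b1. No UMI was allowed of Cd4, of the thymocyte genes Rag1, Dntt and Ptcra, or of the B cell genes Cd79a and Ms4a1. At most 2 UMIs were allowed over the cytotoxic and natural killer genes Nkg7, Klre1, Ncr1 and Gzma, and at most 2 over the macrophage genes C1qa, C1qb and C1qc. Of 53866 barcodes that passed the depth and mitochondrial limits, out of 70795 deposited, 402 were members. Members were thus chosen by measured values of these genes, whose levels are given below as a description.

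The study is about epsins, endocytic adaptor proteins, and about cholesterol export through the transporter ABCG1 in atheroma, by its title. It deposited 4 libraries of aorta, 1 for each group. These were WT mice on normal diet, LysM-DKO mice on normal diet, WT/ApoE-/- mice on western diet and LysM-DKO/ApoE-/- mice on western diet, and values below are listed in that order. ApoE-/- mice lack apolipoprotein E, which clears lipoprotein remnants, and are a common model of atherosclerosis. LysM is a lysozyme promoter used to direct Cre recombinase to myeloid cells, and the labels do not name the genes deleted. The labels give neither age nor sex, nor how many animals went into a library.

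With 1 library per group no difference between groups could be tested, and intervals below cover counting error only. Diet came with ApoE genotype, and also with sex as read from the RNA. Xist, the RNA that coats the inactive X chromosome, had 1480, 404, 0 and 0 UMIs in the CD8 cells, and the Y-linked helicase gene Ddx3y had 0, 0, 30 and 4. Both normal-diet files were also made with Cell Ranger 6.0.1 and both western-diet files with 6.1.2, per their headers. Diet, ApoE genotype, sex and software version cannot be told apart here.

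CD8 T cells recognise peptides on MHC class I through an alpha-beta T cell receptor, helped by a CD8 co-receptor made of CD8 alpha and CD8 beta chains. Naive cells keep homing receptors such as Ccr7, which bring them from blood into lymph nodes, under transcription factors such as Lef1, Tcf7 and Klf2. Antigen-experienced cells lose this programme, gain Eomes, Il2rb and the chemokine Ccl5, and can stay in tissue, where Rgs1 and Cd69 oppose exit signals. In the artery wall, CD8 T cells gather in the adventitia and in atherosclerotic plaques.

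The libraries gave 229, 94, 75 and 4 CD8 cells. They made up 2.53% (exact Clopper-Pearson 95% interval 2.22 to 2.88), 0.976% (0.789 to 1.19), 0.287% (0.226 to 0.359) and 0.0443% (0.0121 to 0.113) of the passing barcodes. The intervals of the 4 libraries did not overlap, with the WT normal-diet library highest. Such a share moves with the number of other cells captured as well as with CD8 cells. The same rule with Cd4 in place of CD8 chains found 127, 224, 82 and 8 CD4 cells. CD8 cells were thus 64.3% (59.1 to 69.3) of CD8 and CD4 cells in the WT normal-diet library and 29.6% (24.6 to 34.9) in the LysM-DKO normal-diet library. The western-diet libraries stood at 47.8% (39.7 to 55.9) and 33.3% (9.92 to 65.1). CD8 cells outnumbered CD4 cells in the WT normal-diet library only. With at least 2 CD8 UMIs required, the share there was 43.6% (37.0 to 50.3), an interval that covered an even split. That limit left the CD4 gate as it was, so it could only lower the share. The interval of the last library, from 4 CD8 cells, covered the values of all the others.

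**Figure D1:**
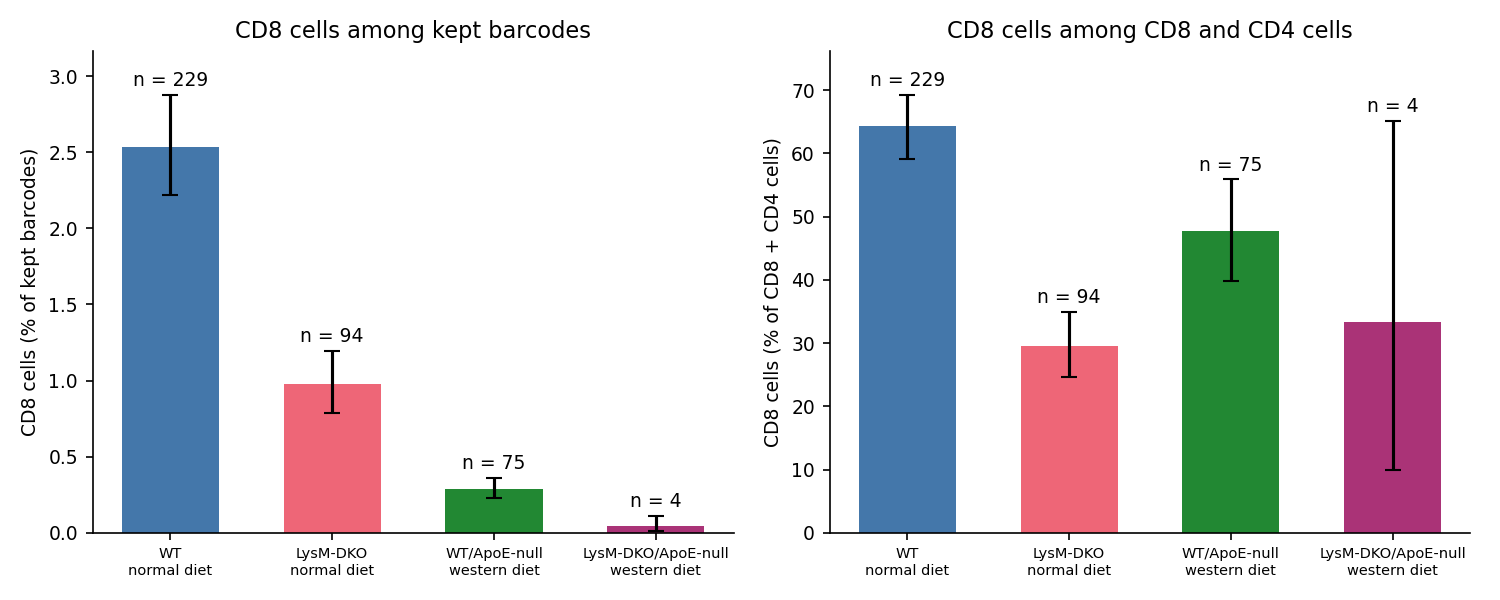
Left, CD8 cells as a percentage of passing barcodes in each of the 4 libraries. Right, CD8 cells as a percentage of CD8 and CD4 cells together. Bars are single libraries, error bars are exact 95% binomial intervals and n is the number of CD8 cells. The left share falls from 2.53% to 0.0443% across the libraries, while the right share is highest at 64.3% and lowest at 29.6%.

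Depth differed between the libraries. A median CD8 cell held 5017, 3870.5, 2370 and 3998.5 UMIs and 1772, 1591, 1095 and 1728 genes. The summed CD8 UMIs were 1298028, 386464, 205513 and 16581, so 3 UMIs, the least count taken as measurable, stood for 2.31, 7.76, 14.6 and 181 CPM, the UMIs of a gene scaled to a common total. No CD8 cell barcode was shared between libraries, while 38 to 129 of all barcodes were shared by each pair. A doublet caller marked 25, 10, 3 and 0 of the members, which were kept as the rule has no such limit.

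Detection of the co-receptor set who became a member. Exactly 1 CD8 UMI had been seen in 131, 72, 61 and 0 members. Another 538, 424, 389 and 25 barcodes met every other limit but had neither a CD8 nor a Cd4 UMI, so many T cells could be put in neither gate. The share of T cells with a CD8 UMI was 28.2%, 17.5%, 17.7% and 11.4%, and 8.87%, 7.13%, 10.5% and 6.99% when each cell was thinned to 1000 UMIs and shallower cells were left out. In smooth muscle barcodes, which should lack CD8, a CD8 UMI was present in 0.562%, 0.872%, 0.287% and 0.0771%. Those barcodes had medians of 5393, 3049, 1192 and 6800 UMIs, against 4191, 3586, 2002 and 2490 in T cells. Close to the cytotoxic limit, 13, 13, 18 and 2 members held 2 such UMIs, and 9, 9, 6 and 0 CD8 cells fell just outside with 3. At the T cell limit, 15, 16, 10 and 0 members held 2 UMIs, and 12, 7, 17 and 1 barcodes with 1 UMI lay just outside.

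Levels of the genes that chose the members were as follows. Cd3d, a signalling chain of the receptor complex, stood at 327, 326, 394 and 422 CPM in CD8 cells and at 24.4, 27.3, 10.3 and 0.887 CPM in the other passing barcodes. Cd3e, its partner, stood at 169, 210, 243 and 362 CPM, and Trac, the receptor alpha constant region, at 170, 160, 258 and 482 CPM. Cd8a (chromosome 6, 71373427 to 71379173 in GRCm38, plus strand) had 64.7, 104, 214 and 302 CPM. Its neighbour Cd8b1 (chromosome 6, 71322788 to 71337494, plus strand) had 233, 233, 253 and 302 CPM. Cd8b1 thus gave 78.3%, 69.2%, 54.2% and 50% of CD8 UMIs. In all, 30, 25, 28 and 0 members had UMIs of Cd8a alone, 164, 60, 39 and 0 of Cd8b1 alone, and 35, 9, 8 and 4 of both. Cd8b1 marks the alpha-beta co-receptor of conventional CD8 T cells.

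The words "without cytotoxic genes" fitted the libraries unequally. No UMI of the 4 limiting genes was seen in 183 of 229, 67 of 94, 39 of 75 and 1 of 4 members. Nkg7, a granule membrane protein, reached 30, 85.4, 243 and 241 CPM, lowest in the WT normal-diet library. Trbc1, a receptor beta constant region that the rule did not use, had 347, 541, 516 and 121 CPM, against 38.5, 53.8, 12.8 and 2.37 CPM in other barcodes. Ptprc, the pan-leukocyte phosphatase CD45, had 1159, 1107, 1090 and 965 CPM, against 156, 183, 86.2 and 10.5 CPM elsewhere. Receptor V segments were seen in few members. A Trbv gene was found in 34 of 229, 9 of 94, 7 of 75 and 1 of 4 cells, spread over 15, 8, 4 and 1 genes. No single Trbv gene was held by more than 5 cells of a library.

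Promoter sequence was at hand for 3 of 7 genes looked up, and not for Ccr7, Ccl5, Rgs1 or Cd8b1. It is shown for a pair of transcription factor genes. These are Eomes, which separated CD8 from CD4 cells, and Nr4a2, whose level had separate intervals in the 3 larger libraries. Each run is the 250 bases before the RefSeq start of the gene in GRCm38.p6, read in the direction of the gene. The Eomes window is chr9:118477939-118478188 (plus strand), and its capitals mark TATATA, which begins 30 bases before the start. TATATA, searched on both strands, occurred in 5.25% of 32851 promoter windows of this length. The Nr4a2 window is chr2:57124004-57124253 (minus strand). Its capitals mark 4 matches to TGACG or its reverse complement CGTCA, the core of the cyclic AMP response element, at 200, 144, 123 and 111 bases before the start. At least 1 such match occurred in 17.8% of the windows. The matches are descriptions of the sequence and were not tested for binding.
Eomes: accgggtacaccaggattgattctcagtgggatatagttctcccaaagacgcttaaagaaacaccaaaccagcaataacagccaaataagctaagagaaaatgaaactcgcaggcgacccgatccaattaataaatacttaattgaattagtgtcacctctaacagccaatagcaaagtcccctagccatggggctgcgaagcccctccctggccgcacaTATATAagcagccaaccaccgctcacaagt
Nr4a2: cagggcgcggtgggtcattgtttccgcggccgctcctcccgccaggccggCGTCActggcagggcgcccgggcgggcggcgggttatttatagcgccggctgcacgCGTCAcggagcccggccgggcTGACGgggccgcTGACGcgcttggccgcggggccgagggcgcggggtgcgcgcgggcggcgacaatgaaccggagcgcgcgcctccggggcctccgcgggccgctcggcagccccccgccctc

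Genes of naive and recirculating T cells were present at high level on normal diet and lower on western diet. Satb1, a chromatin organiser of T cells (chromosome 17, 51736187 to 51833290, minus strand), had 1918 CPM (exact Poisson 95% interval 1843 to 1994), 1444 (1327 to 1569), 696 (586 to 820) and 663 (331 to 1187). The intervals of both normal-diet libraries lay above that of the WT/ApoE-/- western-diet library. Ccr7 (chromosome 11, 99144196 to 99155077, minus strand) had 480 (443 to 519), 388 (329 to 455), 82.7 (48.2 to 132) and 60.3 (1.53 to 336) CPM. Lef1 had 430, 347, 170 and 121 CPM. The same order held for Klf2, with 418, 311, 185 and 60.3 CPM, which controls exit genes such as S1pr1. S1pr1, the receptor through which T cells leave tissue, had 203, 176, 58.4 and 0 CPM, and the repressor Bach2 had 269, 233, 92.5 and 0 CPM. The 0 values of the last library come from 4 cells, in which fewer than 3 UMIs could stand for up to 181 CPM.

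Other members of that list did not follow this order. Tcf7, a factor of naive and stem-like cells, had 277, 235, 370 and 0 CPM, and Il7r, the survival receptor for interleukin 7, had 339, 279, 321 and 60.3 CPM. Ccr9, a gut homing receptor also used by thymocytes, had 7.7, 38.8, 19.5 and 0 CPM. Dapl1, a gene of naive CD8 cells, had 26.2, 7.76, 48.7 and 0 CPM.

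Memory genes were read in every library. Ccl5 (chromosome 11, 83525778 to 83530518, minus strand), a chemokine that recruits leukocytes, had 1448 CPM (1383 to 1515), 3555 (3370 to 3748), 2623 (2406 to 2854) and 1809 (1221 to 2583). These levels compare with 213, 199, 49.1 and 3.72 CPM in other barcodes. Il2rb, a chain of the interleukin 2 and 15 receptor, had 343, 360, 297 and 302 CPM with overlapping intervals. Eomes (chromosome 9, 118478212 to 118486132, plus strand) had 119 (101 to 139), 186 (146 to 235), 131 (86.6 to 191) and 0 CPM. Ly6c2, a surface antigen of memory CD8 cells (chromosome 15, 75108158 to 75111970, minus strand), had 106 (88.6 to 125), 54.3 (33.6 to 83.1), 190 (135 to 259) and 0 CPM, lowest of the 3 larger libraries in LysM-DKO on normal diet. Klrd1 (CD94), a lectin receptor for non-classical MHC, had 74.7, 75, 58.4 and 121 CPM. Klrk1 (NKG2D), a receptor for stress ligands, had 51.6, 49.2, 29.2 and 121 CPM. Cd44, an adhesion receptor kept high on memory cells, had 52.4, 36.2, 127 and 121 CPM, and S100a4, a calcium-binding protein, had 73.2, 140, 272 and 543 CPM.

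Several effector genes were near the limit of detection. Gzmb, a granule protease, had 3, 1, 3 and 2 UMIs, Prf1 (perforin) 16, 5, 4 and 1 UMIs, and Ifng 14, 2, 5 and 1 UMIs. Klrg1 had at most 2 UMIs in any library, and no UMI of Cx3cr1 or S1pr5, markers of circulating effector cells, was seen in any of the 4 libraries. Gzmk, a granzyme of memory-like cells, had 17.7, 38.8, 19.5 and 241 CPM. Fasl, the death ligand, had 16.9 (10.6 to 25.7), 23.3 (10.6 to 44.2), 77.9 (44.5 to 126) and 121 (14.6 to 436) CPM. The chemokine Ccl4 had 34.7, 72.5, 165 and 302 CPM, though other barcodes held 307, 436, 201 and 57.9 CPM. The part of RNA from those cells in the Ccl4 values was not tested.

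Among genes tied to tissue residence and recent stimulation, Rgs1 (chromosome 1, 144242296 to 144249242, minus strand), which dampens chemokine receptor signals, had 67.8 CPM (54.4 to 83.5), 243 (197 to 298), 667 (560 to 788) and 603 (289 to 1109). Other barcodes had 46.8, 57.2, 71 and 11 CPM. Nr4a2 (chromosome 2, 57106830 to 57124003, minus strand), a nuclear receptor induced by antigen receptor signals, had 288 (260 to 319), 435 (371 to 506), 963 (834 to 1107) and 1447 (927 to 2154) CPM. In other barcodes Nr4a2 had 249, 267, 135 and 136 CPM, lower on western diet. Rgs1 and Nr4a2 thus had separate intervals in the 3 larger libraries, in the same order. Cd69, a retention and activation antigen, did not share this order among those 3, with 178 (156 to 202), 153 (116 to 197), 229 (168 to 304) and 724 (374 to 1264) CPM. Junb, an AP-1 subunit, had 970, 1203, 2555 and 2231 CPM, while Fos, its usual partner, had 1153, 1074, 788 and 1146 CPM. Residence factors were sparse: Zfp683 (Hobit) had no UMI in any library, Itgae (CD103) had 12.3, 15.5, 14.6 and 60.3 CPM, and Cxcr6 had 10.8, 23.3, 38.9 and 0 CPM.

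**Figure D2:**
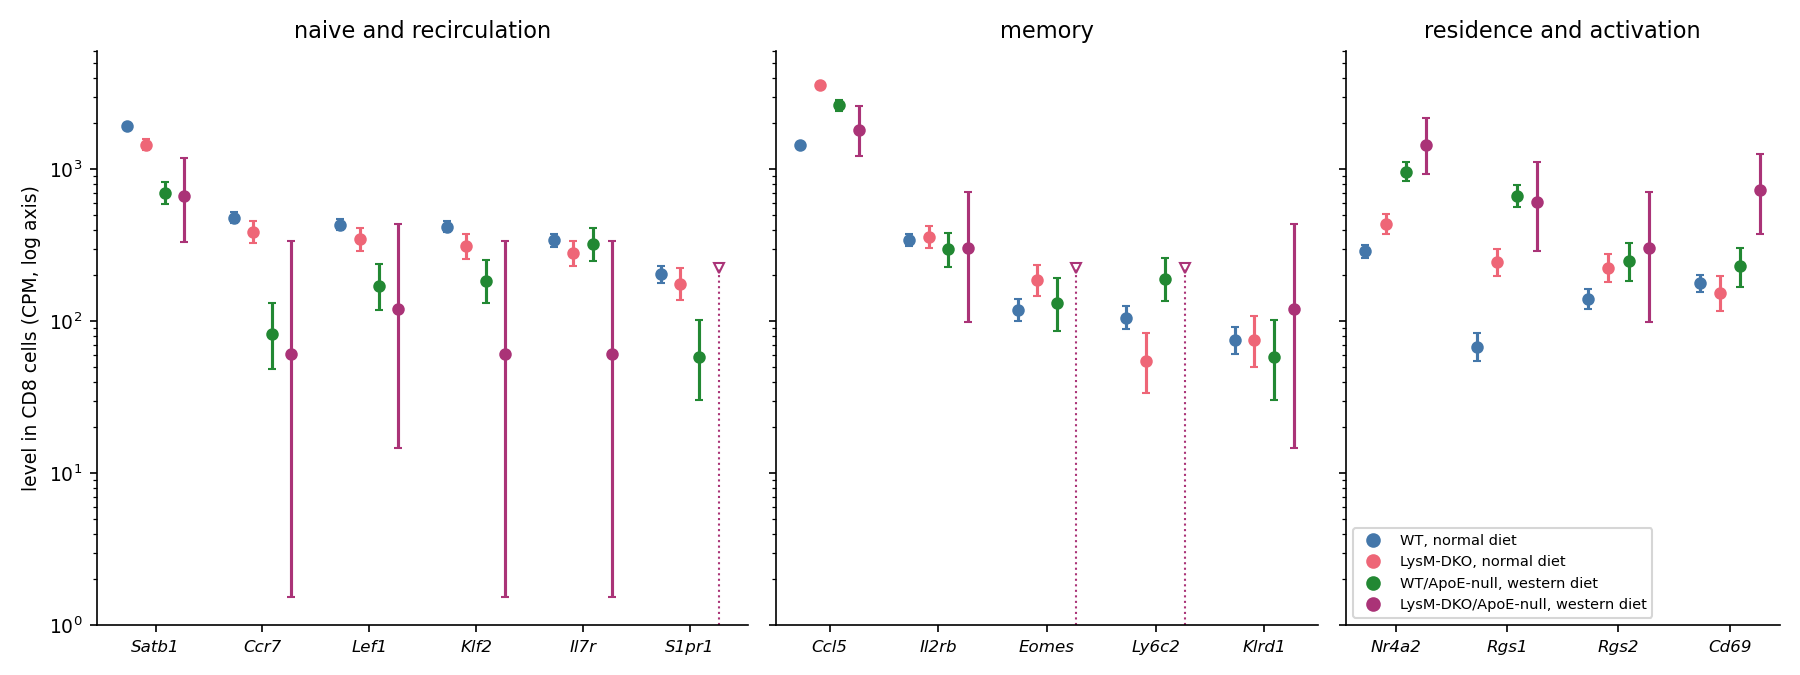
Level of 15 genes in CD8 cells of each library, in CPM on a log axis. Points are single libraries and error bars are exact 95% Poisson intervals, while an open triangle on a dotted line marks the upper limit where no UMI was seen. Ccr7 and Satb1 are highest in the WT normal-diet library, and Rgs1 and Nr4a2 are lowest there.

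Between genotypes on normal diet, CD8 cells of the LysM-DKO library had more Ccl5, Rgs1 and Pdcd1 RNA and less Satb1, Klf2, Lef1 and Ccr7 RNA than WT cells. As a log2 ratio, LysM-DKO over WT gave 1.84 for Rgs1 (exact 95% counting interval 1.41 to 2.28) and 1.30 for Ccl5 (1.19 to 1.40). In members with no UMI of the 4 cytotoxic genes, the Ccl5 ratio was 0.49 and that of Rgs1 1.47. Nr4a2 had a ratio of 0.60 (0.32 to 0.86). Eomes had 0.66 (0.23 to 1.06), but -0.04 when cells were averaged with equal weight and -1.29 in members with no cytotoxic UMI, so its direction was not settled. Ly6c2 had -0.93 (-1.70 to -0.29) and Gzmm, a granzyme, 20 against 2.59 CPM.

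Of 16 naive-cell genes, 16 had at least 20 UMIs over both libraries, and 13 were lower and 3 higher in LysM-DKO, with a median log2 ratio of -0.25. The median over all 7084 genes with 20 UMIs was 0.03. Satb1 had -0.41 (-0.54 to -0.28), Klf2 -0.43 (-0.73 to -0.14), Lef1 -0.31 (-0.59 to -0.04) and Ccr7 -0.30 (-0.57 to -0.05). Only Ccr9, higher, and Dapl1, lower, were past 2-fold, where the background was 3.46% of genes higher and 4.69% lower, 8.15% in all. In members with no cytotoxic UMI, the log2 ratio was -0.31 for Satb1, -0.27 for Klf2, -0.42 for Lef1 and -0.05 for Ccr7. These genes kept their direction there, but little of the Ccr7 difference was left. The CD4 cells of these libraries had Satb1 at 1396 and 600 CPM and Ccr7 at 374 and 186 CPM, in the same order as CD8 cells.

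Pdcd1 (PD-1), an inhibitory receptor of stimulated T cells, had 12.3 CPM (7.05 to 20) and 56.9 CPM (35.7 to 86.2) in the WT and LysM-DKO normal-diet libraries, a log2 ratio of 2.20 (1.21 to 3.23). The western-diet libraries had 24.3 and 0 CPM. Ikzf2 (Helios), a factor of regulatory and some stimulated T cells, had 167 and 352 CPM, a ratio of 1.08 (0.75 to 1.39). Other inhibitory receptors were low, with Ctla4 at 37 and 41.4 CPM and Lag3 at 7.7 and 0 CPM. Of 8 inhibitory genes, 5 had 20 UMIs, 3 were higher and 2 lower, and Pdcd1 alone was past 2-fold. Over all 7084 genes with 20 UMIs, 3.46% were past 2-fold higher and 4.69% past 2-fold lower.

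Of 12 interferon-response genes, 8 had 20 UMIs, with 6 higher and 2 lower in LysM-DKO, of which 3 and 1 were past 2-fold. Among all genes with 20 UMIs, 3.46% were past 2-fold higher and 4.69% past 2-fold lower. The list's median log2 ratio was 0.36, against 0.03 over all genes. Ifi27l2a had 46.2 and 122 CPM, a ratio of 1.40 (0.81 to 1.97), though other barcodes went from 51.1 to 133 CPM. Isg15, a ubiquitin-like interferon product, had 8.47 and 38.8 CPM, a ratio of 2.18 (0.98 to 3.46). Gbp2, a guanylate-binding protein induced by interferon gamma, was past 2-fold the other way, with 55.5 and 23.3 CPM. For MHC class I presentation, 8 of 10 genes were higher and 2 lower, with 2 past 2-fold higher and a median log2 ratio of 0.30. H2-K1, a classical class I heavy chain, had 2226 and 3084 CPM, a ratio of 0.47 (0.37 to 0.57), where other barcodes had 693 and 979 CPM. The part of RNA from other cells in these values was not tested.

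The highest and lowest single ratios on normal diet lay mostly outside these lists. They were taken among genes that, in the library where they were higher, had a higher level in CD8 cells than in other barcodes, so a gene could pass through that library alone. In WT, the CD8 level of Esr1, Foxq1, Slc22a15, Ccr9, Isg15, Tbc1d4, Milr1 and Pef1 lay below that of other barcodes. Esr1, the estrogen receptor alpha gene (chromosome 10, 4611593 to 5005614, plus strand), had 12.3 and 142 CPM, a log2 ratio of 3.50 (2.70 to 4.43), and other barcodes had 27.3 and 106 CPM. Slc22a15 (3.02), Tbc1d4 (2.06), Foxq1 (3.33), Sdcbp2 (2.15), Milr1 (1.99) and Pef1 (1.88) completed the higher set with Ccr9, Pdcd1 and Isg15. Tbc1d4, a Rab GTPase activator that restrains glucose transporter traffic, had 25.4 and 106 CPM. Gt(ROSA)26Sor, the non-coding RNA of the Rosa26 locus (chromosome 6, 113067428 to 113077333, minus strand), had 77 UMIs in WT and 0 in LysM-DKO. Against the 3-UMI limit per library, it was at least 7.64-fold lower in LysM-DKO. In other barcodes it had 33.1 and 3.81 CPM on normal diet but 22 and 19.4 CPM on western diet, where CD8 cells had 43.8 and 60.3 CPM. Trim13 (28 against 0 UMIs), Mterf3 (27 against 0) and Hells (22 against 0), a chromatin remodeller of dividing cells, were at least 2.78-, 2.68- and 2.18-fold lower. Spp1 (osteopontin) had 124 and 10.4 CPM, Elovl6, a fatty acid elongase, 91.7 and 10.4 CPM, and Dnajc15, a mitochondrial chaperone, 99.4 and 15.5 CPM. Snhg6 (-3.17), Fopnl (-2.73) and Bcas3 (-2.50) were the other named genes that were lower. In LysM-DKO, the measured CD8 level of all these lower genes except Elovl6 lay below that of other barcodes. Spp1, for example, had 10.4 CPM in CD8 cells there and 53.3 CPM in other barcodes. Apart from Elovl6, the lower genes were thus chosen through the WT library alone.

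Between WT on normal diet and WT/ApoE-/- on western diet the ratios were larger. Of 6800 genes with 20 UMIs over both libraries, 10.1% were past 2-fold higher and 8.56% past 2-fold lower on western diet, and the median log2 ratio was 0.11. Scaling by median-ratio size factors moved this median by -0.24, so ratios near 0 have no settled direction. Of 15 naive-cell genes with 20 UMIs out of 16, 10 were lower and 5 higher, with 6 past 2-fold lower and 1 past 2-fold higher. Their median log2 ratio was -0.51. Ccr7 had -2.50 (-3.33 to -1.85), S1pr1 -1.74 (-2.77 to -0.97), Bach2 -1.50 (-2.29 to -0.88) and Satb1 -1.46 (-1.72 to -1.22). Lef1 had -1.32 (-1.87 to -0.84) and Klf2 -1.16 (-1.69 to -0.70). Tcf7 was on the other side, with 0.43 (0.04 to 0.78). In other barcodes the levels of Satb1 were 274 and 54.8 CPM and of Ccr7 84.6 and 14.7 CPM, which moved with the CD8 values, and the part of such RNA in the CD8 ratios was not tested.

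Rgs1 had a log2 ratio of 3.29 (2.90 to 3.70) in this pair, Nr4a2 1.74 (1.49 to 1.99), Junb 1.40 (1.25 to 1.55) and Ccl5 0.86 (0.72 to 0.996). Detection gave the same order as level for Rgs1. An Rgs1 UMI was present in 21%, 35.1% and 57.3% of CD8 cells in the 3 larger libraries, and in 6.59%, 16.5% and 41.6% after thinning to 1000 UMIs. Smooth muscle barcodes had one in 1.77%, 1.97% and 3.91%, and thinned in 0.546%, 0.648% and 2.03%. Nr4a2 was found in 56.8%, 60.6% and 68% of CD8 cells and, thinned, in 22.8%, 30.1% and 52.3%. It was common in smooth muscle barcodes too, at 48%, 40.5% and 18.6%, and at 18.3%, 18.4% and 9.56% after thinning. Effector ratios come from members of which 183 of 229 in WT and 39 of 75 in WT/ApoE-/- held no cytotoxic UMI. Of 13 effector genes, 7 had 20 UMIs and all 7 were higher on western diet. The 4 past 2-fold compare with 10.1% of all genes past 2-fold higher. They included Ccl4 (2.26; 1.57 to 2.93), Fasl (2.21; 1.17 to 3.19), Tbx21 (2.10; 0.58 to 3.49), the master factor of type 1 responses, and Xcl1 (1.39; 0.31 to 2.33), a chemokine for cross-presenting dendritic cells. S100a4 had 1.90 (1.39 to 2.39) and Cd44 1.29 (0.56 to 1.94), but 0.86 and 0.74 without members that held over 2% of UMIs from other cell types.

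All 15 T cell receptor signalling genes had 20 UMIs between diets in WT, with 11 higher and 4 lower on western diet. Of these, 3 were past 2-fold higher and 1 past 2-fold lower, where all genes had 10.1% and 8.56%. Their median log2 ratio was 0.58 against 0.11 over all genes, and median-ratio scaling moved ratios by -0.24. Thy1, a surface glycoprotein, had 70.9 and 214 CPM, a log2 ratio of 1.60 (1.04 to 2.13), and Lat, the linker of activated T cells, 76.3 and 170 CPM, a ratio of 1.17 (0.56 to 1.73). Ubash3a, a suppressor of receptor signals, had 62.4 and 24.3 CPM, a ratio of -1.23 (-3.02 to -0.08). Outside that list, Themis, needed for positive selection in the thymus, had 51.6 and 180 CPM, a ratio of 1.81 (1.18 to 2.40). Bcl11b, a T cell identity factor of the lineage list, had 121 and 341 CPM, a ratio of 1.50 (1.07 to 1.91). For MHC class I, H2-K1 had 2226 and 2083 CPM, a ratio of -0.09 (-0.25 to 0.05), so its difference was not detectable at this depth, while Psmb8, an immunoproteasome subunit, had 79.4 and 175 CPM, a ratio of 1.16 (0.55 to 1.70).

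Among the single ratios of the diet pair chosen the same way, Rgs16, an inhibitor of G protein signals like Rgs1, had 7.7 and 92.5 CPM, a log2 ratio of 3.55 (2.41 to 4.85). Des (desmin, 3.22), Tm2d3 (2.66), Chst11 (2.66) and Kdm6bos (2.53) were also high on western diet. Ttc9, Anxa8, Nupr1 and Nbl1 were on the same side, at 3.17, 3.11, 2.86 and 2.73. Without members that held over 2% of UMIs from genes of other cell types, these 4 had -1.35, -1.86, -0.43 and -2.06. In WT on normal diet, the CD8 level of Rgs16, Des, Tm2d3, Chst11, Kdm6bos, Nupr1 and Nbl1 lay below that of other barcodes. Those genes were thus chosen through the western-diet library alone. Des had 7.7 and 73 CPM in CD8 cells, and other barcodes had 55.4 and 61.7 CPM. On the lower side, Tsix (225 against 0 UMIs) overlaps Xist on the opposite strand and was at least 11.9-fold lower, and the non-coding AI506816 (163 against 0) at least 8.6-fold. Ccr2, a receptor for monocyte chemokines also carried by memory T cells, had 55 and 0 UMIs, at least 2.9-fold lower. Apobec3 and Soat1, a cholesterol esterification enzyme, were at least 2.85- and 2.37-fold lower. Smarcd1, Gpr146, Esm1, Tubgcp4 and Prpf3 were at least 2.59-, 2.43-, 2.22-, 2.22- and 2.01-fold lower. All these lower genes had no UMI in the CD8 cells of WT/ApoE-/- on western diet but some in its other barcodes. They were thus chosen through the WT normal-diet library alone.

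The LysM-DKO/ApoE-/- western-diet library had 4 members, and 1 of them held all 59 of its Dcn UMIs. Its ratios passed 2-fold in 33.9% of genes against WT on western diet (17.8% higher, 16.1% lower) and in 43.5% against LysM-DKO on normal diet (23.7% higher, 19.8% lower). The highest were the histone genes Hist1h2ap (23 UMIs, against 0 and 2 UMIs) and Hist1h1e (17 UMIs), along with Top2a, a topoisomerase of dividing cells (12 UMIs), and AW112010 (22 UMIs). Gsn and Dcn, fibroblast genes, were also higher, and without the member that held over 2% of UMIs from other cell types their log2 ratios against LysM-DKO on normal diet were -2.51 and -1.75. Tcf7, Cblb, Gimap6 and Amd1 had no UMI in these cells. With 4 cells, no further reading was made.

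The CD8 cells of each library were a mixture by these genes. The split was chosen after the levels had been seen and is a description. A UMI of Ccr7 or Lef1 was present in 87.3% of CD8 cells (82.3 to 91.4) in the WT normal-diet library, 63.8% (53.3 to 73.5) in LysM-DKO on normal diet, 30.7% (20.5 to 42.4) in WT/ApoE-/- on western diet and 1 of 4 cells in the last. Thinned to 1000 UMIs, which left out 0, 1, 5 and 0 shallower cells, the shares were 52.7%, 39%, 17.7% and 19.6%, in the same order over the 3 larger libraries. A Ccl5 UMI was present in 36.7% (30.4 to 43.3), 37.2% (27.5 to 47.8), 52% (40.2 to 63.7) and 3 of 4 cells, and after thinning in 28.2%, 33.7%, 49.8% and 68.8%. Smooth muscle barcodes had a Ccl5 UMI in 3.41%, 3.99%, 2.36% and 0.1%. At this limit of 1 UMI, the measured share of Ccl5-positive CD8 cells was close in both normal-diet libraries, while the Ccl5 level was 1448 and 3555 CPM. Cells with a single Ccl5 UMI count here like cells with many, and 1 LysM-DKO normal-diet cell held 241. Shares at a higher limit were not computed. Cells with naive genes alone numbered 141, 48, 17 and 1, those with both 59, 12, 6 and 0, those with Ccl5 alone 25, 23, 33 and 3, and those with neither 4, 11, 19 and 0.

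**Figure D3:**
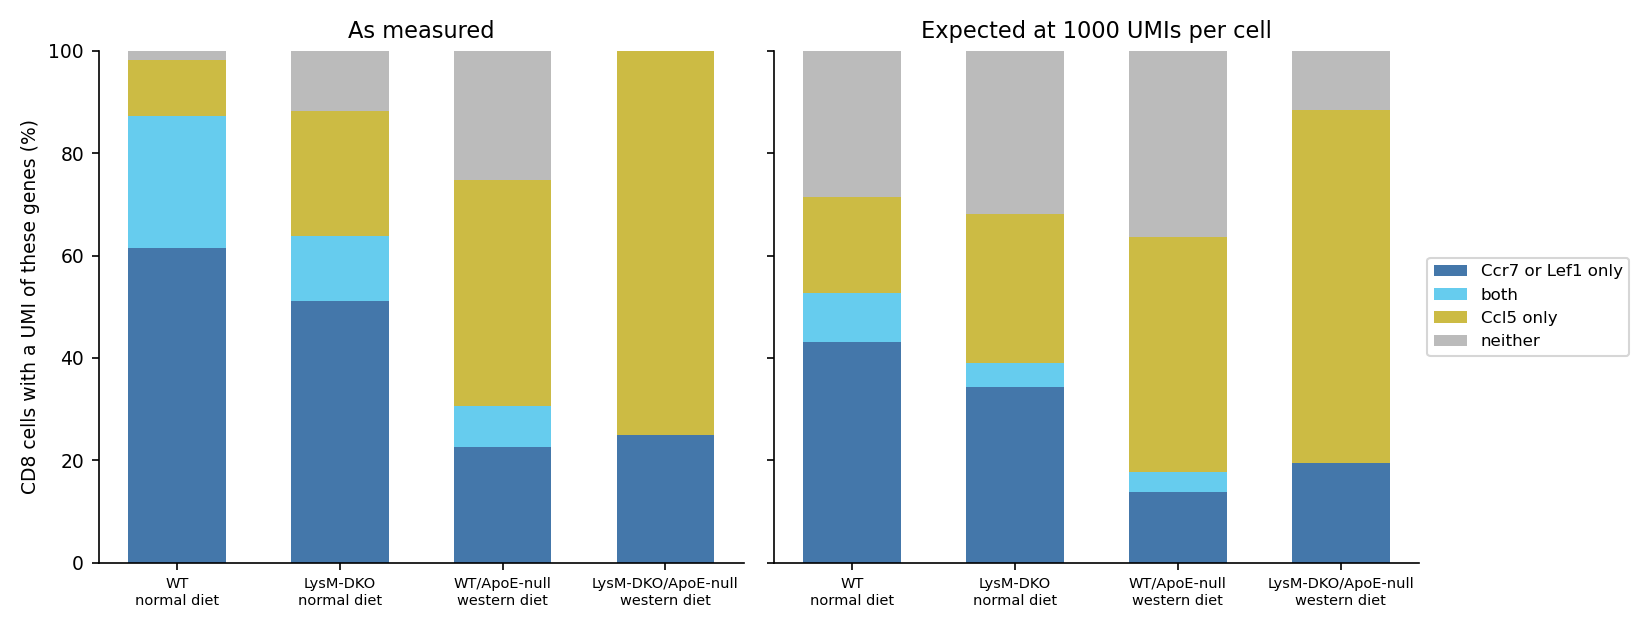
Share of CD8 cells in each library with a UMI of Ccr7 or Lef1 only, of Ccl5 only, of both or of neither, as measured (left) and as the expected share with each cell thinned to 1000 UMIs (right). Bars are single libraries. The share with a naive gene, alone or with Ccl5, is 87.3% in the WT normal-diet library and 30.7% in the WT/ApoE-/- western-diet library, and 52.7% and 17.7% after thinning.

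Within a library, Ccl5-positive cells and cells with naive genes alone differed in other genes too. Ccl5-positive cells here include those with both, which were 59 of 84, 12 of 35 and 6 of 39 in the 3 larger libraries. The Ccl5-positive group thus held a different share of cells with a naive gene in each library. The part of this mixture in the ratios below was not tested. Il2rb was higher in Ccl5-positive cells by a log2 ratio of 1.13 (0.86 to 1.41), 1.28 (0.76 to 1.82) and 1.88 (0.75 to 3.49) in the 3 larger libraries. Rgs1 was higher by 1.69, 2.23 and 1.71, and Id2, a regulator of effector and memory fate, by 0.77, 0.86 and 1.12. Gzmk had 23, 15 and 4 UMIs in Ccl5-positive cells and none in naive-only cells of any of the 3. Eomes had 135 and 19 UMIs in the WT normal-diet library (3.62; 2.95 to 4.43), 41 and 30 in LysM-DKO on normal diet (1.15; 0.44 to 1.88), and 26 and 0 in WT/ApoE-/- on western diet. Cd69 had -0.54 (-0.99 to -0.11), -1.31 (-2.46 to -0.39) and -0.86 (-1.80 to 0.09), the last spanning 0. Ly6c2 had no common direction, with 2.94 (2.32 to 3.65), 0.57 (-0.83 to 1.94) and -1.21 (-2.46 to 0.0034). Klrd1 was level, with -0.06, 0.22 and 0.11 and intervals that all spanned 0. Genes of the naive list did not all fall in Ccl5-positive cells. Il7r had 0.66 (0.39 to 0.94), 1.43 (0.82 to 2.08) and -0.59 (-1.39 to 0.25). S1pr1 had 0.21 (-0.16 to 0.58), 1.12 (0.40 to 1.88) and 0.77 (-1.32 to 4.28). Satb1 was lower by -0.11 (-0.23 to 0.0079), -1.10 (-1.41 to -0.81) and -2.15 (-2.81 to -1.54), the first spanning 0. Klf2 had -0.51, -0.62 and -0.72, and Tcf7 -0.16, -0.31 and -0.99. Rgs1 in naive-only cells was itself 37.8, 77.8 and 285 CPM, and in Ccl5-positive cells 123, 372 and 958 CPM, so the order of the libraries was the same in both.

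CD8 and CD4 cells of the same libraries were compared with edgeR's quasi-likelihood test on summed UMIs, with library as a block, in the 3 libraries with at least 10 cells of each. CD8 cells were higher in 5 of 10 memory genes tested and lower in 2, and lower in all 6 helper and regulatory genes tested. Of 5587 genes tested, 181 (3.24%) were higher and 190 (3.4%) lower in CD8 cells at a Benjamini-Hochberg adjusted p under 0.05. Without the block the counts were 20 and 40, all among the calls made with it. The libraries differ in genotype and diet, and a call is an average difference over them that a single library need not show. Genes of the rule were not tested.

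Ly6c2 had 106, 54.3 and 190 CPM in CD8 cells and 0, 3.17 and 0 CPM in CD4 cells, a fitted log2 fold change of 5.69 ± 0.52 (SE; edgeR adjusted p = 5.43e-06). Klrd1, with 74.7, 75 and 58.4 CPM against 0, 0 and 4.17, had 6.64 ± 0.61. Bend4 (chromosome 5, 67392147 to 67428310, minus strand), a BEN domain protein, had 275, 344 and 117 CPM against 10.9, 27.5 and 12.5, a change of 4.01 ± 0.24. Ccl5 had 1448, 3555 and 2623 CPM against 40.1, 222 and 551, a change of 3.77 ± 0.32 (edgeR adjusted p = 2.97e-06). Eomes had 119, 186 and 131 CPM against 21.9, 15.8 and 54.2, a change of 2.73 ± 0.32 (edgeR adjusted p = 4.63e-05). CD8 and CD4 values of these 5 genes did not overlap. The share of all tested genes without overlap was not counted, so this adds nothing to the calls. Klrk1 (4.28), Fam241a (2.99), Sidt1 (2.29), Ccl4 (2.03), Pde2a (1.87), Plac8 (1.80), the Tec kinase Txk (1.74), Selplg, the P-selectin ligand (1.69), and Plcxd2 (1.57) were higher as well. In all, 5 of 10 memory genes tested were higher and 2, Cd44 (-1.19) and Id2 (-0.60), lower, and the list's median was 1.31 against 0.01 over all genes.

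Of 14 naive-cell genes tested, 3 were higher and 1 lower. Satb1 (0.87 ± 0.15) and Lef1 (0.65 ± 0.19; edgeR adjusted p = 0.0486) were among the higher in CD8 cells, and Slamf6 (-0.89) was lower. Lef1 lost its call with DESeq2, with median-ratio scaling, without the LysM-DKO normal-diet library and with all 4 libraries. Satb1 lost its call with all 4 libraries. Ccr7, with 480, 388 and 82.7 CPM against 374, 186 and 133, had 0.60 ± 0.22 and did not pass (edgeR adjusted p = 0.149). Cd69, with 178, 153 and 229 CPM against 94.7, 66.6 and 138, was higher by 1.09 ± 0.18 (edgeR adjusted p = 0.000834). Nr4a2 (0.45; edgeR adjusted p = 0.11) and Rgs1 (-0.51; edgeR adjusted p = 0.331) did not pass, and CD4 cells had Rgs1 at 224, 336 and 592 CPM.

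On the CD4 side, all 6 helper and regulatory genes tested were lower in CD8 cells. Tnfrsf4 (OX40), a costimulatory receptor, had 11.6, 2.59 and 9.73 CPM in CD8 cells and 113, 175 and 229 in CD4 cells, a change of -3.80 ± 0.33. Ikzf2 had -1.83, Icos, a costimulator of helper cells, -1.70, Tnfrsf18 (GITR) -1.79, Izumo1r, the folate receptor 4 of regulatory cells, -2.56 and Rora -1.07. Outside that list, Tnfsf8 (CD30 ligand; chromosome 4, 63831308 to 63861347, minus strand) had 20.8, 12.9 and 9.73 CPM against 470, 468 and 342. Its change, -4.58 ± 0.23 (edgeR adjusted p = 1.37e-08), was the lowest among the named genes. Plagl1 (-3.54), Tnfrsf9 (4-1BB, -3.16), Stx11 (-3.10), Slc22a15 (-3.02), Tbc1d4 (-2.81), Ttn (-2.47), Smco4 (-2.41), the phosphatase Dusp4 (-2.38) and Ctla4 (-2.35) followed. Foxp3, the regulatory T cell factor, had 1, 2, 0 and 0 UMIs in CD8 cells. Of 6 lineage regulators tested, Satb1 was higher and Gata3 (-2.20), Tox (-2.08) and Runx1 (-1.18) were lower, while Runx3, which silences Cd4, had 112, 179 and 161 CPM against 78.3, 210 and 121 and did not pass (0.30; edgeR adjusted p = 0.485). Of 15 receptor signalling genes, 6 were lower in CD8 cells and none higher: Cd5 (-1.76), Cd2 (-1.50), Cd247 (-1.27), Cd6 (-1.06), Lcp2 (-1.04) and Cd28 (-0.97).

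**Figure D4:**
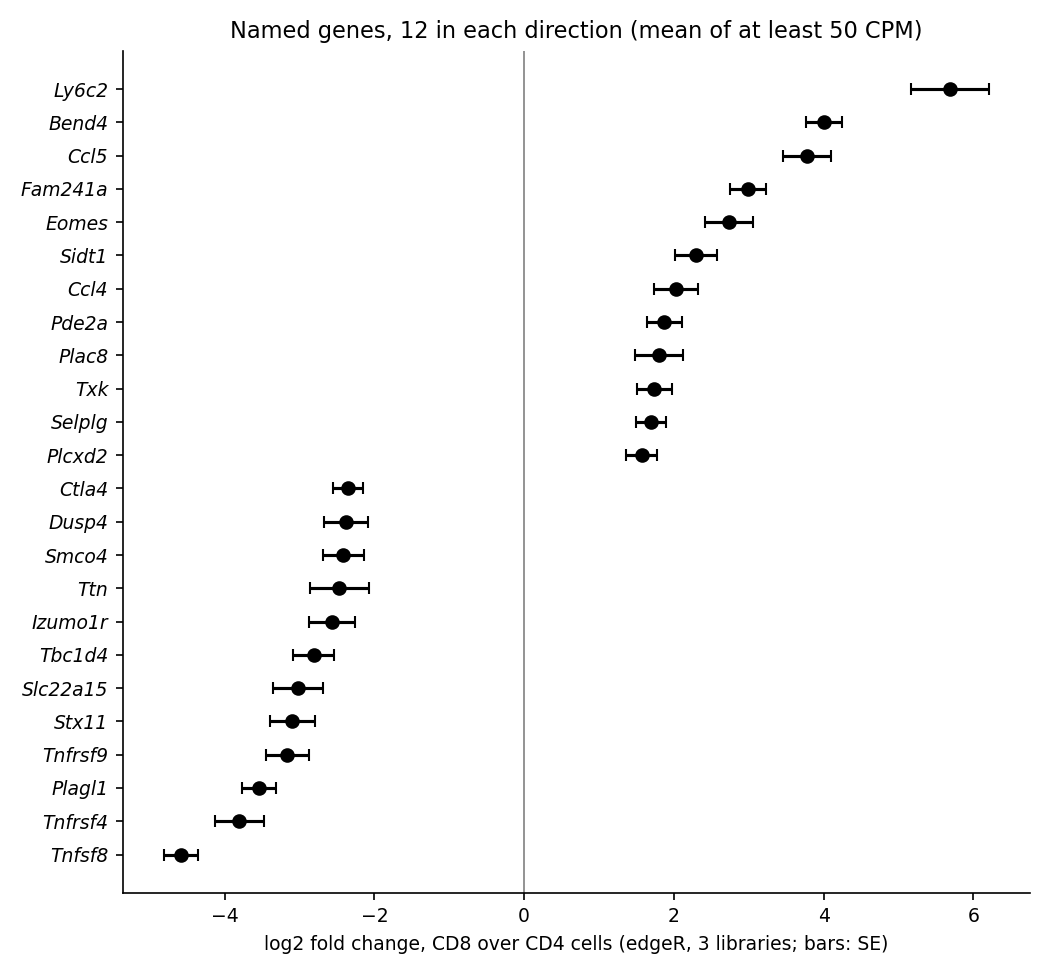
Fitted log2 fold change of CD8 over CD4 cells for the 12 named genes in each direction, among genes with a mean of at least 50 CPM and an edgeR adjusted p under 0.05. Points are estimates over 3 libraries and error bars are SE. Ly6c2 lies highest at 5.69 and Tnfsf8 lowest at -4.58.

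Some groups gave no call between CD8 and CD4 cells. None of 10 MHC class I genes passed, and H2-K1, with 2226, 3084 and 2083 CPM against 2699, 2942 and 2503, had -0.03 ± 0.09. None of 13 immediate early and stress genes passed either. Of 6 interferon-response genes tested, 2 were lower in CD8 cells, among them Ifi27l2a (-1.69). Among marker genes of other cell types tested, Hba-a2, a hemoglobin chain, was the only call (-1.28), and it turned to 0.14 without cells that held over 2% of UMIs from other cell types. Acta2, the smooth muscle actin gene, had 2877, 2652 and 2788 CPM in CD8 cells against 3398, 3236 and 4397 in CD4 cells and did not pass.

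Thymocyte-like cells, with a CD8 UMI and a UMI of Rag1, Dntt or Ptcra, numbered 14, 35, 15 and 1. Unlike the CD8 gate, theirs allowed any number of Cd4 UMIs and of the cytotoxic and natural killer genes. Of 3016 genes tested by edgeR with library as a block over 3 libraries, 401 (13.3%) were higher and 352 (11.7%) lower in CD8 cells. Without the WT normal-diet library the counts were 87 and 104. All 9 thymocyte genes tested outside the rule were lower. Arpp21, a thymocyte RNA-binding protein gene (chromosome 9, 112065091 to 112235938, minus strand), had 0, 2.59 and 0 CPM in CD8 cells and 229, 462 and 335 in thymocyte-like cells, a change of -8.11 ± 0.54 (edgeR adjusted p = 3.06e-06). All 9 cell cycle genes tested were lower too, such as Mki67, with 30, 5.18 and 4.87 CPM against 721, 910 and 1094 (-5.35 ± 0.44). Slc7a11, Syt13, Ly6d, E2f2, Cdca7, Hist1h3c, Aqp11, Tubb2b, Knl1 and Hist1h1b were lower by fitted changes between -6.77 and -5.31.

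Of 15 naive-cell genes tested, 8 were higher and 4 lower. The higher ones included Ccr7 with 480, 388 and 82.7 CPM against 68.6, 6.89 and 0 (4.10 ± 0.48; edgeR adjusted p = 6.87e-05), Il7r (3.06), Bach2 (2.52), S1pr1 (2.44) and Klf2 (1.85). Ccr9 (-4.74), Tcf7 (-1.86), Nsg2 (-1.96) and Slamf6 (-1.05) were lower. Of 7 MHC class I genes tested, 3 were higher and 1, the peptide transporter Tap2 (-2.21), lower. H2-K1 was at 2226, 3084 and 2083 CPM against 435, 724 and 229 (2.68 ± 0.19; edgeR adjusted p = 3.08e-06), and H2-D1 (2.48) and B2m (2.04) were the other higher ones. Of 13 receptor signalling genes tested, 1, Cd2 (1.50), was higher and 5 were lower: Cd247 (-2.54), Trbc1 (-1.78), Lck (-1.61), Thy1 (-1.59) and Lat (-1.23). Eomes (4.13), Il2rb (3.21), Nr4a2 (3.04), Junb (2.09) and Runx3 (2.18) were higher, as were H2-Q6 (5.18), Cd69 (4.84), Inpp4b (4.76), Bcl2a1b (4.71), Chd7 (4.48), Neurl3 (3.91), Traf1 (3.65), Cblb (3.42), Spp1 (3.41) and Cd53 (3.41). Spp1 had 124 and 10.4 CPM in CD8 cells of the WT and LysM-DKO normal-diet libraries, and other barcodes had 57.2 and 53.3 CPM. CD8 and thymocyte-like values of Spp1 overlapped. Among marker genes of other cell types tested, the fibroblast gene Dcn was the only call, also higher. The part of RNA from other cells in the Spp1 and Dcn calls was not tested. Without the WT normal-diet library, 37 of 80 genes named here or called in a list no longer passed. B2m, Klf2, Bach2, S1pr1, Nsg2, Slamf6, Runx3, Cblb, Cd2, Lck, Thy1, Lat and Tap2 were among them.

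RNA of other cell types was present in the CD8 cells. The 6 smooth muscle genes summed to 6176, 6078, 6764 and 1870 CPM, which is 22.4%, 28.2%, 23% and 4.55% of their level in other barcodes. The 6 fibroblast genes summed to 575, 1048, 4340 and 10253 CPM. In the WT/ApoE-/- western-diet library 1 member held 212 of 274 Dcn UMIs. Hemoglobin UMIs numbered 1937, 151, 1 and 0, and 2 WT normal-diet members held 1738 of them. The 7 macrophage genes summed to 53.9, 88, 63.3 and 60.3 CPM with Csf1r and Adgre1 at 0 in all 4 libraries, and the 6 natural killer genes to 10, 2.59, 19.5 and 0 CPM with Tyrobp at 0 in both normal-diet libraries. The 6 B cell genes summed to 193, 652, 112 and 0 CPM, and Cd79b and Ighd had no UMI in either western-diet library. Gamma-delta T cell genes had few UMIs, with Cd163l1 at 9, 1, 0 and 0. Zbtb16, a factor of innate-like T cells and the only gene of that list with 20 UMIs in a ratio, had 21, 17, 9 and 3 UMIs, or 16.2, 44, 43.8 and 181 CPM. Its log2 ratio was 1.45 (0.43 to 2.44) between genotypes on normal diet and 1.48 (0.13 to 2.62) between diets in WT, and other barcodes had more, 78.8, 153, 91.4 and 236 CPM. A median CD8 cell had 0.488%, 0.76%, 0.351% and 0.373% of UMIs from genes of other cell types, and 10, 4, 8 and 1 cells had over 2%. Without these cells the diet ratio of Ccr7 was -2.18, of Rgs1 3.49 and of Nr4a2 1.96, and the genotype ratio of Rgs1 on normal diet was 1.79 and of Ccl5 1.28. The part of the remaining fibroblast, B cell and hemoglobin RNA in the ratios between libraries was not tested.

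**Figure D5:**
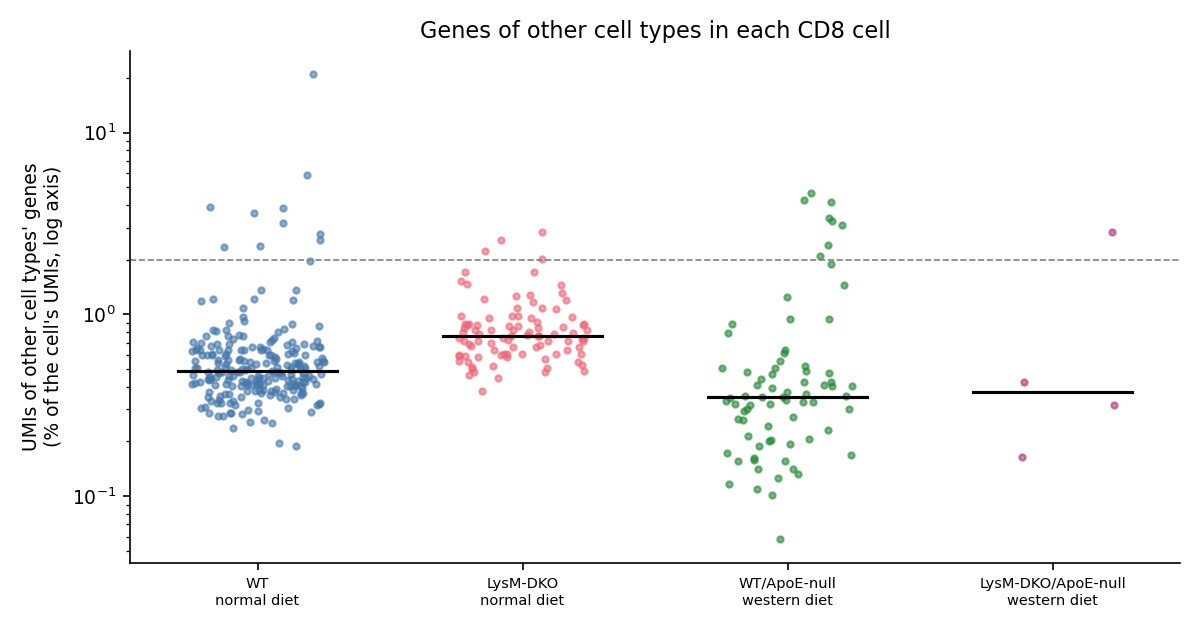
Percentage of each CD8 cell's UMIs that came from the listed genes of other cell types, on a log axis, by library. Points are single cells, spread sideways at random, black lines are medians and the dashed line marks 2%. The medians lie between 0.351% and 0.76%, and 1 WT normal-diet cell reaches 21%.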

How the data were processed

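RNA was measured by droplet sequencing in 4 aorta libraries, 1 per group, after enzymatic digestion. The deposited files hold UMI counts per gene and barcode for 32285 features, of which 99.8% matched GENCODE M21 on GRCm38. Cell Ranger 6.0.1 or 6.1.2 is named per the file headers, and Cell Ranger 6.1.2, Seurat 4.1.0 and mm10 per the submitters' processing notes. Per the labels, the tissue is aorta and no animals per library are given.

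Deposited counts were summed over the members of each library and divided by their total to give CPM. Levels have exact Poisson intervals, shares exact Clopper-Pearson intervals, and log2 ratios (0.5 UMIs added to each count) exact conditional binomial intervals, all at 95% and for counting error only. Between groups, 2-fold differences over at least 20 UMIs were counted without a test. CD8 sums were compared with CD4 and with thymocyte-like sums by edgeR 4.0.16 (quasi-likelihood, TMM scaling, filter on low counts, Benjamini-Hochberg adjustment at 0.05). Library was a block because the sums of 1 library come from the same preparation, and sums needed at least 10 barcodes, which left out LysM-DKO/ApoE-/- on western diet. Simulated counts had a spread between sums (dispersion) set at 0.05 for all genes and the same change in every library. On such data over 5315 genes, the CD4 comparison recovered 26.7% of 2-fold and 95.7% of 4-fold changes. Over 2546 genes, the thymocyte comparison recovered 25.3% and 98.6%. Recovery at the spread of the real data was not tested. Doublets were scored with Scrublet in scanpy 1.11.5, marking the top 0.8% per 1000 barcodes with at least 1000 UMIs.

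Named genes were those of the rule and of 24 lists. For each edgeR comparison, the 12 called genes with the largest change in each direction and a mean of at least 50 CPM were added. For each ratio, the 10 highest and 10 lowest with an interval apart from 0 and, in the library where they were higher, a level above that of other barcodes were added, without mitochondrial, ribosomal, hemoglobin, immunoglobulin, Xist, Y-linked and predicted genes. Some listed genes are counted but not reported here by name. Members and lists were chosen with earlier results of these data known. Alternatives used DESeq2 1.42.0, other filters, other gates and left-out libraries. Other tools were R 4.3.3, matplotlib 3.10.9, pandas 2.3.3, numpy 2.4.6 and scipy 1.17.1 under Python 3.11.15.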

Additional observations from a re-analysis of the deposited data

How the results depend on the processing

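Settings that involve members over 2% of UMIs from other cell types were chosen after seeing the data. The cause of the shifts below was not tested, apart from the smaller samples or gene sets that an alternative makes by construction.

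CD8 cells as a share of passing barcodes were 2.95% in WT and 0.509% in WT/ApoE-/- with at least 1000 UMIs. With at most 20% mitochondrial UMIs, normal-diet shares were 1.84% (WT) and 0.691% (LysM-DKO). With at least 2 CD8 UMIs the first 3 libraries had 1.08%, 0.228% and 0.0535%, and with no cytotoxic UMI all 4 had 2.02%, 0.695%, 0.149% and 0.0111%. The CD8 share of CD8 and CD4 cells was 43.6%, 8.94% and 14.6% with at least 2 CD8 UMIs, a limit that left the CD4 gate unchanged. With no cytotoxic UMI in either gate, that share was 23.8% for the LysM-DKO normal-diet library and 35.1% for WT/ApoE-/-. The share of genes past 2-fold between genotypes on normal diet was 13.8% at 10 UMIs and 3.26% at 50, and on western diet 21.5% at 50.

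CD8 against CD4 cells gave 20 higher and 40 lower genes with no replicate block, 61 and 111 with all 4 libraries, 81 lower with DESeq2, 287 lower with no filter and 277 higher without members over 2%. Leaving out a library gave 120 to 255 higher and 113 to 284 lower, the lowest without LysM-DKO on normal diet. Against thymocyte-like cells, DESeq2 gave 245 and 200, no filter 684 higher, and leaving out a library 87 to 550 higher and 104 to 544 lower, the lowest without WT on normal diet. With no replicate block there were 287 and 318 calls there.

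Ratios reversed with no cytotoxic UMI for Eomes (-1.29) and Gzmk (-0.014) on normal diet, for Midn (0.11) and Gsn (-1.90) between genotypes on western diet, for Cd28 (-0.0031), Ly6c2 (-0.15) and Tox (-0.26) between diets in WT, and for Satb1 (1.11), Ccr7 (0.41), Dcn (-0.19) and Gsn (-1.30) between diets in LysM-DKO. Eomes on normal diet had -0.035 as a mean over single cells. Without members over 2%, Gsn (-1.12) and Nupr1 (0.87) reversed between genotypes on western diet, Ttc9 (-1.35), Anxa8 (-1.86), Nupr1 (-0.43) and Nbl1 (-2.06) between diets in WT, Dcn (-1.75) and Gsn (-2.51) between diets in LysM-DKO, and Hba-a2 (0.14) against CD4 cells. Median-ratio scaling moved the median ratio by -0.09 and -0.24 on normal diet and between diets in WT, and by -0.82 and -1.02 in the comparisons with 4 cells. Over all alternatives, 502 values of single genes against CD4 cells kept their call, 59 lost it and 1 reversed. Against thymocyte-like cells 784 kept it and 83 lost it.

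Depth limits the western-diet levels, where 3 UMIs stand for 14.6 and 181 CPM, and the 4 cells of the last library allow no reading of absent genes.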
